A study of Mus musculus with 6 samples.

Results

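The genes described here encode glucose transporters, the enzymes of glycolysis, the hypoxia-inducible factors (HIFs) and genes that respond to them. They were measured by RNA sequencing of LSECs, the liver's sinusoidal endothelium, whose fenestrated cells line its blood spaces. The set was chosen by name, and all 33 listed genes were found among the 34745 genes of the count table. The ECKO group had 3 libraries from mice labelled as an endothelial-specific knockout of Tgfbr2, the type II receptor for TGF-beta. The control group had 3 libraries from Tgfbr2f/f littermates, titled WT, whose Tgfbr2 alleles are floxed. Both groups had been injected intraperitoneally with CCl4 (carbon tetrachloride, which injures hepatocytes and scars the liver) 2 times per week for 6 weeks, so there was no group without CCl4. The sources used here do not give the Cre driver, sex, age or isolation of the LSECs, nor say whether each library came from 1 mouse. The p-values therefore measure the spread between these libraries, and for a single value compared alone the smallest exact permutation p of 3 libraries against 3 is 0.1.

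Glycolysis splits glucose into pyruvate and yields ATP without oxygen. Endothelial cells rely on it for most of their energy although they sit next to oxygenated blood. When oxygen falls, prolyl hydroxylases stop marking HIF alpha subunits for destruction, and the stabilised factors raise transcription of glucose transporters, most glycolytic enzymes, lactate dehydrogenase and genes that restrain mitochondria. In the liver, blood loses oxygen along the sinusoid, so LSECs near the central vein are in lower oxygen than those near the portal tract. HIF activity is controlled mainly through the stability of its alpha subunits, which RNA levels do not report.

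Total counts were 17171850 to 18671217 in the ECKO-labelled libraries and 17632271 to 25062755 in the Tgfbr2f/f libraries. Values below are CPM (counts scaled to a common library size) normalised by TMM, a method that sets library sizes from the bulk of genes. The targeted gene, Tgfbr2, had 498, 487 and 511 CPM in the ECKO-labelled libraries and 387, 442 and 452 CPM in the Tgfbr2f/f libraries (log2 fold change 0.22, SE 0.10, adjusted p = 0.228). It was not lower in the ECKO-labelled libraries, and because the labels do not state which part was deleted, gene counts cannot check the deletion. Sinusoidal endothelial markers summed to 27274 to 32518 CPM over 15 genes in the ECKO-labelled libraries and 25510.3 to 29220.5 CPM in the Tgfbr2f/f libraries. Stellate cell and fibroblast markers, by contrast, summed to 599 to 830.1 CPM over 12 genes in the ECKO-labelled libraries and 1536 to 2846 CPM in the Tgfbr2f/f libraries, and 7 of the 12 were lower by the test. The mitochondrial genome took 19.7% to 32.4% of counts in the ECKO-labelled libraries and 11.5% to 23.5% in the Tgfbr2f/f libraries.

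The promoters of 4 of the genes are shown because these genes carry the contrasts described below. Slc2a1 and Eno2 were the only genes of the set to pass the test, both lower in the ECKO-labelled libraries. Eno2 had enough counts to be tested only through the Tgfbr2f/f libraries. Ddit4 and Bnip3 were higher in every ECKO-labelled library than in any Tgfbr2f/f library. Each line gives the 250 bases before the RefSeq transcription start on GRCm38.p6, 5′ to 3′ on the gene's strand. Capitals mark the letters ACGTG and GCGTG, the core that HIF heterodimers bind, on either strand. The windows are chr4:119108495-119108744 (plus strand) for Slc2a1, chr6:124769674-124769923 (minus strand) for Eno2, chr10:59951771-59952020 (minus strand) for Ddit4 and chr7:138909507-138909756 (minus strand) for Bnip3. The Slc2a1 and Bnip3 windows reach a little past the start of the gene at its deposited coordinates.
Slc2a1: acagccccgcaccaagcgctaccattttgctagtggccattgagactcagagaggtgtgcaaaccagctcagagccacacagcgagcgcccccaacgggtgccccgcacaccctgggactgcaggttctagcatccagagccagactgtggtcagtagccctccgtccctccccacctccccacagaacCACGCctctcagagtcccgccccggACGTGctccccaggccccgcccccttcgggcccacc
Eno2: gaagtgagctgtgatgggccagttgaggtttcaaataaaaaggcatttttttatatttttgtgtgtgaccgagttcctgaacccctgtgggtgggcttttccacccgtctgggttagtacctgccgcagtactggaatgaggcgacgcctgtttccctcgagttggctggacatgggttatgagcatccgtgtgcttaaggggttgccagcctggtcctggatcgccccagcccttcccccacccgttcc
Ddit4: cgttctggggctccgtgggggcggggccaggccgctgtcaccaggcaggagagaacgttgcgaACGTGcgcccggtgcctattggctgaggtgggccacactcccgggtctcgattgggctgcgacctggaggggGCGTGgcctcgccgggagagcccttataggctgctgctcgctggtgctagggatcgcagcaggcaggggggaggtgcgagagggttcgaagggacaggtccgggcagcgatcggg
Bnip3: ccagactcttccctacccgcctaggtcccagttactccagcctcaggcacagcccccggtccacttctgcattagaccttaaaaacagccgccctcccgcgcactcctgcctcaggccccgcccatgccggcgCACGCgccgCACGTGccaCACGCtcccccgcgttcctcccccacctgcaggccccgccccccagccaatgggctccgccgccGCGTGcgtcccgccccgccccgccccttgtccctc

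Slc2a1 held 1 ACGTG and 1 GCGTG, Ddit4 1 of each and Bnip3 2 and 3, where the CACGTG of Bnip3 counts on both strands. Eno2 held neither motif in this window. RefSeq start sites were found for 30 of the 33 genes, in 45 windows, and Slc2a3, Epas1 and Ndrg1 had no entry. ACGTG was present in 46.7% of these windows and in 16.6% of 32841 windows of all genes. GCGTG was present in 48.9% and 28.2%, and 77.8% against 38.6% held at least 1 of these motifs. CACGTG, which other factors also bind, was in 11.1% and 6.02%. The median G and C content of the windows was 61.6% for the set and 52.4% for all genes, and its part in these shares was not tested. Such matches are a description of the letters and say nothing about binding.

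Of the 33 genes, 32 passed the filter on low counts, Eno2 only through the Tgfbr2f/f libraries, where it was higher. In the ECKO-labelled libraries 2 fell (Slc2a1 and Eno2), none rose and 30 did not pass edgeR's quasi-likelihood test at an adjusted p of 0.05. Over all 13692 genes tested, 2.79% were lower and 1.24% higher by the same rule. At an unadjusted p under 0.05 the set had 12 of 32 genes, where all genes gave 23.5%. DESeq2 called 3 higher (Bnip3, Ddit4 and Ndrg1) and 5 lower (Aldoc, Egln3, Eno2, Pfkm and Slc2a1), against 2.98% higher and 6.82% lower of the 15210 genes to which it gave an adjusted p. By limma-voom none were higher and 2 lower, against 0.84% and 1.46% of all genes. The median log2 fold change was -0.12, beside 0.01 over all genes tested. All ECKO-labelled libraries lay above all Tgfbr2f/f libraries for 6 of the 32 genes (18.8%) and below them for 7 (21.9%), where all genes gave 15.7% and 15.2%. These shares are near the background, and the genes are described singly below. Total count scaling moved the median of all genes to -0.22 and that of the set to -0.35, and then 8 genes were called lower (those 5 with Hif1a, Hk1 and Tpi1) and none higher, where all genes gave 8.83% lower and 0.46% higher. On log2(FPKM + 0.1) the median of all genes was -0.19. Values under these 2 scalings are to be read against those medians.

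**Figure D1:**
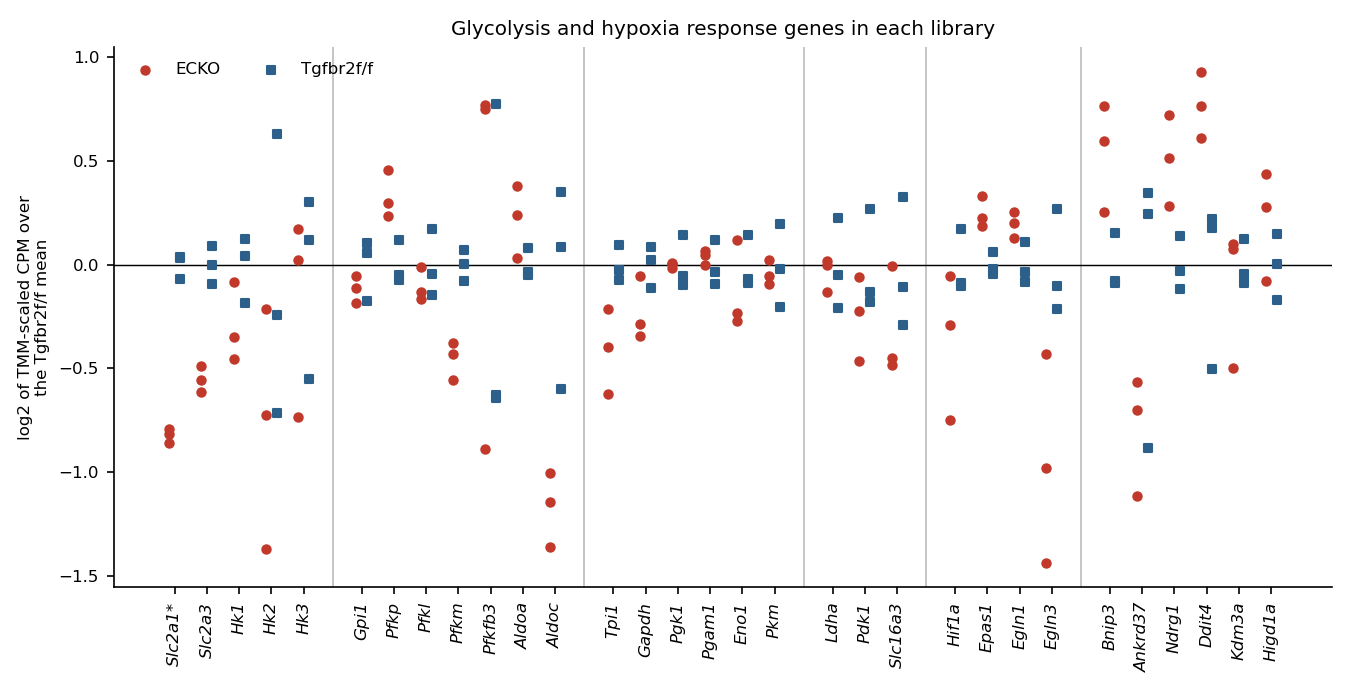
Each tested gene except Eno2 in each library, as the log2 of its TMM-scaled CPM over the mean of the Tgfbr2f/f libraries, grouped by role and separated by grey lines. Circles are ECKO-labelled libraries, squares are Tgfbr2f/f libraries, and an asterisk marks an adjusted p below 0.05. The 3 Slc2a1 circles sit close together below all squares, whereas those of Pfkfb3, Hk2 and Kdm3a are spread wide.

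Slc2a1 had the smallest adjusted p of the set. It encodes GLUT1, the basal glucose transporter of endothelium, and is a HIF target (ENSMUSG00000028645, chromosome 4, 119108711 to 119137983, plus strand). Its level was 7.39, 7.49 and 7.17 CPM in the ECKO-labelled libraries and 13.3, 12.4 and 13.3 CPM in the Tgfbr2f/f libraries. The libraries of each group lay close together, and the groups did not overlap. Slc2a1 fell to 7.35 ± 0.167 CPM in the ECKO-labelled libraries, against 13.01 ± 0.542 CPM in the Tgfbr2f/f libraries (mean ± SD, n = 3 each; log2 fold change -0.82, SE 0.13, adjusted p = 0.0241), or 0.565 times the Tgfbr2f/f level. The value hardly moved when single libraries were left out (-0.86 to -0.80). With fewer libraries its adjusted p was 0.0963, 0.0556 and 0.0876 without ECKO replicates 1, 2 and 3, 0.0513 and 0.110 without Tgfbr2f/f replicates 2 and 3, and 0.0246 without Tgfbr2f/f replicate 1.

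Summed markers of several other cell types were also lower in every ECKO-labelled library than in any Tgfbr2f/f library. Besides the stellate markers above, cholangiocyte markers summed to 142 to 192 CPM over 7 genes in the ECKO-labelled libraries and 217 to 609 CPM in the Tgfbr2f/f libraries, and B, T and NK cell markers to 4.07 to 6.92 CPM over 12 genes in the ECKO-labelled libraries and 7.61 to 20.7 CPM in the Tgfbr2f/f libraries. By the test 0 of 7 cholangiocyte markers fell, and 2 of the 5 B, T and NK cell markers that could be tested. No gene of these 3 lists was at 0 in all libraries. Monocyte and neutrophil markers summed to 36.9 to 45.4 CPM over 12 genes in the ECKO-labelled libraries and 57.1 to 88.7 CPM in the Tgfbr2f/f libraries, with Ly6g at 0 throughout. Hepatocyte markers summed to 897 to 1753 CPM over 12 genes in the ECKO-labelled libraries and 928 to 1683 CPM in the Tgfbr2f/f libraries, so those groups overlapped. Slc2a1 is expressed by many cell types, and the part of these cells in its difference was not tested. In bulk libraries fewer cells of a type and less RNA per cell cannot be told apart.

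Slc2a3, which encodes the high-affinity transporter GLUT3, was low in both groups, with 2.13, 2.03 and 1.95 CPM in the ECKO-labelled libraries and 3.18, 2.80 and 2.98 CPM in the Tgfbr2f/f libraries (log2 fold change -0.55, SE 0.23, adjusted p = 0.208). Those groups did not overlap either, but the gene did not pass. Slc2a1 made up 88.3% ± 0.357 in ECKO and 90.1% ± 0.293 in Tgfbr2f/f of the summed FPKM (the deposited level scaled by length and depth) of the pair (exact permutation p = 0.1, adjusted 0.157 over 11 shares of this kind). GLUT1 RNA was thus the main one of the pair in every library.

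The hexokinases trap glucose by phosphorylating it. Hk1, the constitutive isoform that docks on mitochondria, was the most abundant, with 133, 103 and 111 CPM in the ECKO-labelled libraries and 154, 124 and 146 CPM in the Tgfbr2f/f libraries (log2 fold change -0.29, SE 0.13, adjusted p = 0.237). One ECKO-labelled library lay within the Tgfbr2f/f range. Its call depended on scaling, with a log2 fold change of -0.53 (adjusted p = 0.0369) under total count scaling. The median of all genes was -0.22 under that scaling. Hk1 held 93.4% ± 0.846 in ECKO and 92.5% ± 1.16 in Tgfbr2f/f of the summed FPKM of Hk1, Hk2 and Hk3. Hk2, the inducible isoform and a HIF target, ranged from 1.74 to 3.90 CPM in the ECKO-labelled libraries and from 2.75 to 6.98 CPM in the Tgfbr2f/f libraries, and Hk3, the isoform of myeloid cells, from 1.03 to 1.93 and from 1.17 to 2.11 CPM. Neither passed (adjusted p = 0.354 and 0.857). Hk2 varied widely between libraries (log2 fold change -0.70, SE 0.42), with Tgfbr2f/f replicate 1 the highest at 6.98 CPM. Hk3 was too low for small differences to be seen, with 18 to 30 counts in an ECKO-labelled library and 28 to 45 in a Tgfbr2f/f library.

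**Figure D2:**
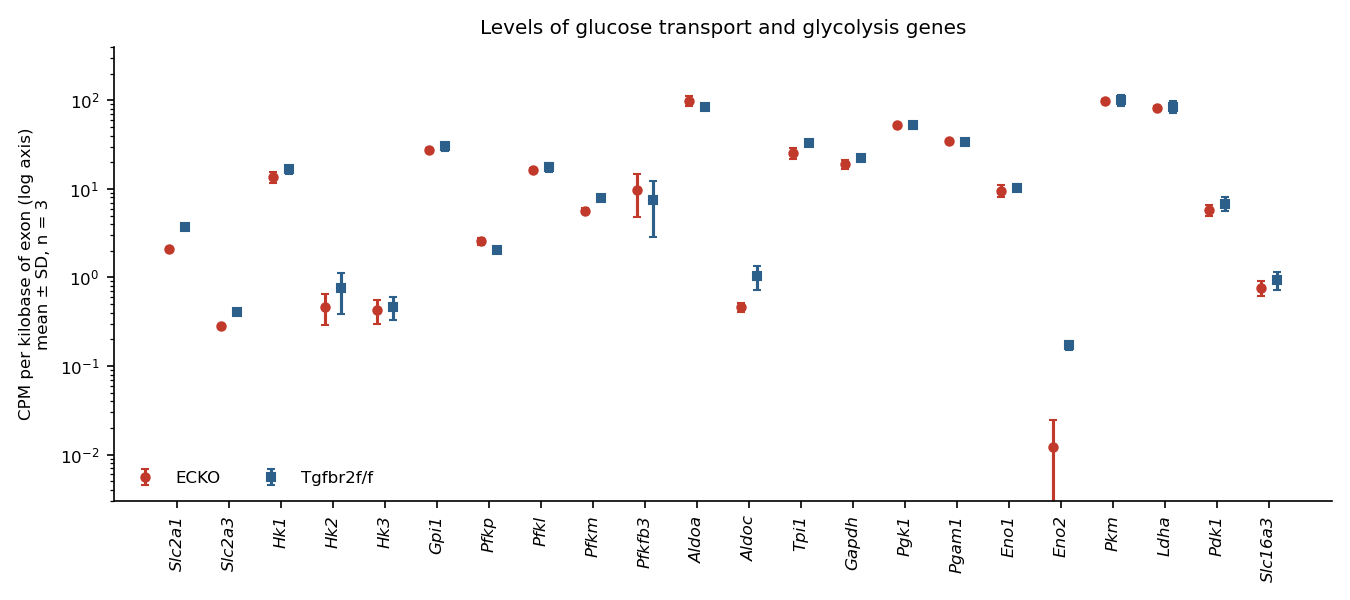
Levels of the genes of glucose transport, glycolysis and pyruvate use as TMM-scaled CPM per kilobase of exon, on a log axis, as mean ± SD of 3 libraries, with circles for ECKO-labelled and squares for Tgfbr2f/f libraries. Aldoa, Pkm and Ldha were the highest of these genes in both groups and Eno2 the lowest; the lower bar of Eno2 in ECKO runs past the axis.

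In the hexose phosphate steps none of the 7 genes passed the test. Levels between genes are compared as CPM per kilobase of exon from GENCODE M21, because the gene lengths behind the deposited FPKM were longer than the exons for 24 of the 33 genes and, for Gapdh, Aldoa, Aldoc, Tpi1 and Eno2, longer than the gene itself (8626 against 4753 bases for Gapdh). Phosphofructokinase commits sugar to glycolysis. Its liver-type subunit gene Pfkl had 16.3 ± 0.925 in ECKO and 17.5 ± 2.02 in Tgfbr2f/f CPM per kilobase, the muscle-type Pfkm 5.69 ± 0.355 in ECKO and 7.79 ± 0.412 in Tgfbr2f/f, and the platelet-type Pfkp 2.55 ± 0.206 in ECKO and 2.03 ± 0.151 in Tgfbr2f/f. Pfkm and Pfkp differed in opposite directions, and neither passed. Pfkm had 20.04, 19.3 and 17.7 CPM in the ECKO-labelled libraries and 24.6, 26.1 and 27.4 CPM in the Tgfbr2f/f libraries (log2 fold change -0.45, SE 0.11, adjusted p = 0.0626), with no overlap. Pfkp had 32.02, 33.3 and 37.3 CPM in the ECKO-labelled libraries and 26.2, 25.8 and 29.5 CPM in the Tgfbr2f/f libraries (log2 fold change 0.33, SE 0.11, adjusted p = 0.130), also with no overlap but higher in the ECKO-labelled libraries. Pfkl overlapped between groups (log2 fold change -0.10, SE 0.11, adjusted p = 0.608).

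Within the phosphofructokinase family, the share of Pfkm in the summed FPKM was 20.3% ± 1.87 in ECKO and 25.2% ± 2.65 in Tgfbr2f/f, and that of Pfkp 9.08% ± 0.476 in ECKO and 6.53% ± 0.618 in Tgfbr2f/f. Both shares separated the groups, with the smallest p the design allows (exact permutation p = 0.1, adjusted 0.157). The direction of the Pfkl share was not stable, being 2.30 percentage points (ECKO minus Tgfbr2f/f) on FPKM and -1.46 on raw counts. Pfkm alone reached an adjusted p of 0.0207 by DESeq2 and 0.0349 under total count scaling. Under the latter its log2 fold change was -0.70, beside -0.22 for the median of all genes.

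Pfkfb3 makes the sugar phosphate that activates phosphofructokinase and is the best-known driver of endothelial glycolysis. It had 95.6, 30.7 and 96.8 CPM in the ECKO-labelled libraries and 97.3, 36.7 and 36.3 CPM in the Tgfbr2f/f libraries. The values fell into a high and a low level within both groups: ECKO replicates 1 and 3 and Tgfbr2f/f replicate 1 were between 95.6 and 97.3 CPM, and the other 3 libraries were between 30.7 and 36.7 CPM. The group difference was small beside that spread (log2 fold change 0.39, SE 0.55, adjusted p = 0.702). Without Tgfbr2f/f replicate 1 the log2 fold change was 1.03 (adjusted p = 0.281). The 13 mitochondrial genome transcripts were also highest in those 3 libraries, at 23.5% to 32.4% of counts against 11.5% to 19.7% in the others, and their part in the spread was not tested.

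Gpi1, the isomerase upstream of phosphofructokinase, had 179 ± 8.26 CPM in ECKO and 195 ± 19.6 CPM in Tgfbr2f/f (log2 fold change -0.12, SE 0.11, adjusted p = 0.542), and its groups overlapped. Aldoa, the aldolase that splits the sugar, had 253, 322 and 292 CPM in the ECKO-labelled libraries and 262, 238 and 242 CPM in the Tgfbr2f/f libraries (log2 fold change 0.22, SE 0.11, adjusted p = 0.282). The groups overlapped. Aldoc, the brain-type isoform, was rare, with 1.53, 1.68 and 1.32 CPM in the ECKO-labelled libraries and 3.60, 4.32 and 2.24 CPM in the Tgfbr2f/f libraries (log2 fold change -1.16, SE 0.32, adjusted p = 0.0885). All ECKO-labelled libraries were below all Tgfbr2f/f libraries, and DESeq2 gave it an adjusted p of 0.0328. Aldoa made up 99.4% ± 0.0814 in ECKO and 98.6% ± 0.459 in Tgfbr2f/f of the summed FPKM of Aldoa and Aldoc.

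In the triose phosphate steps, where glycolysis makes its ATP and NADH, Eno2 alone passed. Tpi1, which interconverts the triose phosphates, had 69.2, 78.8 and 59.2 CPM in the ECKO-labelled libraries and 97.6, 86.7 and 89.6 CPM in the Tgfbr2f/f libraries (log2 fold change -0.40, SE 0.12, adjusted p = 0.108). All ECKO-labelled libraries lay below the Tgfbr2f/f libraries. Total count scaling gave Tpi1 a log2 fold change of -0.63 (adjusted p = 0.0315), beside -0.22 for the median of all genes. Gapdh, the dehydrogenase of the pathway, had 75.1, 88.02 and 72.1 CPM in the ECKO-labelled libraries and 92.9, 84.6 and 96.9 CPM in the Tgfbr2f/f libraries (log2 fold change -0.22, SE 0.11, adjusted p = 0.267), with ECKO replicate 2 above Tgfbr2f/f replicate 2. Pgk1, whose product makes the first ATP, had 117 ± 1.02 CPM in ECKO and 118 ± 10.8 CPM in Tgfbr2f/f, and Pgam1, the mutase, 69.1 ± 1.59 CPM in ECKO and 67.4 ± 5.14 CPM in Tgfbr2f/f. Their log2 fold changes were -0.00 (SE 0.10) and 0.04 (SE 0.09).

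Eno1 encodes the common enolase and Eno2 the neuronal one. Eno1 had 51.2 ± 7.87 CPM in ECKO and 55.5 ± 5.08 CPM in Tgfbr2f/f (log2 fold change -0.12, SE 0.13, adjusted p = 0.628). Reads of Eno1 may be shared with its retrotransposed copy Eno1b, which held 49.1% as many counts over the 6 libraries and had 24.8 ± 2.43 CPM in ECKO and 27.3 ± 1.06 CPM in Tgfbr2f/f (log2 fold change -0.14, SE 0.11, adjusted p = 0.478). The listed copies of Pgam1 held 13.1% as many counts as the gene, and those of Gapdh, Pgk1, Ldha and Tpi1 under 1%. Eno2 (ENSMUSG00000004267, chromosome 6, 124760053 to 124769673, minus strand) had 0, 2 and 1 counts in the ECKO-labelled libraries and 17, 18 and 20 counts in the Tgfbr2f/f libraries. All ECKO-labelled libraries were below all Tgfbr2f/f libraries. Scaled by the TMM library sizes, the ratio of the summed counts, 3 over 55, was 0.0751 (95% exact conditional interval 0.0150 to 0.231, which covers counting error only), and Eno2 fell by the test (adjusted p = 0.0314).

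Eno2 was tested only because its 3 Tgfbr2f/f libraries had at least 10 counts, and no ECKO-labelled library did. It was rare even in the Tgfbr2f/f libraries, at 0.711 to 0.884 CPM, and Eno1 made up 99.9% ± 0.0597 in ECKO and 99.1% ± 0.0623 in Tgfbr2f/f of the summed FPKM of the pair. Leaving out any library but Tgfbr2f/f replicate 1 gave an adjusted p of 0.0679 to 0.115, and without that library it was 0.0327. As with Slc2a1, markers of stellate cells, cholangiocytes and lymphocytes were lower in the same libraries, and their part was not tested.

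Pkm, pyruvate kinase of non-hepatic cells, and Ldha, which reduces pyruvate to lactate, were among the most abundant genes of the set. Pkm had 476, 489 and 515 CPM in the ECKO-labelled libraries and 581, 440.1 and 500.1 CPM in the Tgfbr2f/f libraries (log2 fold change -0.04, SE 0.12, adjusted p = 0.865). Ldha had 256, 284 and 280.0 CPM in the ECKO-labelled libraries and 328, 242 and 271 CPM in the Tgfbr2f/f libraries (log2 fold change -0.04, SE 0.13, adjusted p = 0.883). For both, the ECKO-labelled libraries lay inside the Tgfbr2f/f range. Per kilobase of exon Pkm stood at 98.6 ± 4.03 in ECKO and 101 ± 14.1 in Tgfbr2f/f CPM, Ldha at 82.6 ± 4.55 in ECKO and 84.7 ± 13.2 in Tgfbr2f/f and Aldoa at 99.1 ± 11.9 in ECKO and 84.9 ± 4.30 in Tgfbr2f/f. In the Tgfbr2f/f libraries the mean ± SD ranges of these 3 genes overlapped. In the ECKO-labelled libraries that of Ldha lay below that of Pkm and, narrowly, below that of Aldoa.

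Summed over 14 enzymes from Gpi1 to Ldha, glycolytic RNA was 1702, 1856 and 1793 CPM in the ECKO-labelled libraries and 1999, 1675 and 1807 CPM in the Tgfbr2f/f libraries. Those sums overlapped. Pdk1, the kinase that keeps pyruvate out of mitochondria, had 44.97 ± 6.25 CPM in ECKO and 53.1 ± 9.43 CPM in Tgfbr2f/f (log2 fold change -0.24, SE 0.16, adjusted p = 0.387). Slc16a3, the lactate exporter MCT4 and a HIF target, had 4.09 ± 0.789 CPM in ECKO and 5.02 ± 1.14 CPM in Tgfbr2f/f (log2 fold change -0.30, SE 0.25, adjusted p = 0.507). None of the 3 genes that set the fate of pyruvate passed.

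**Figure D3:**
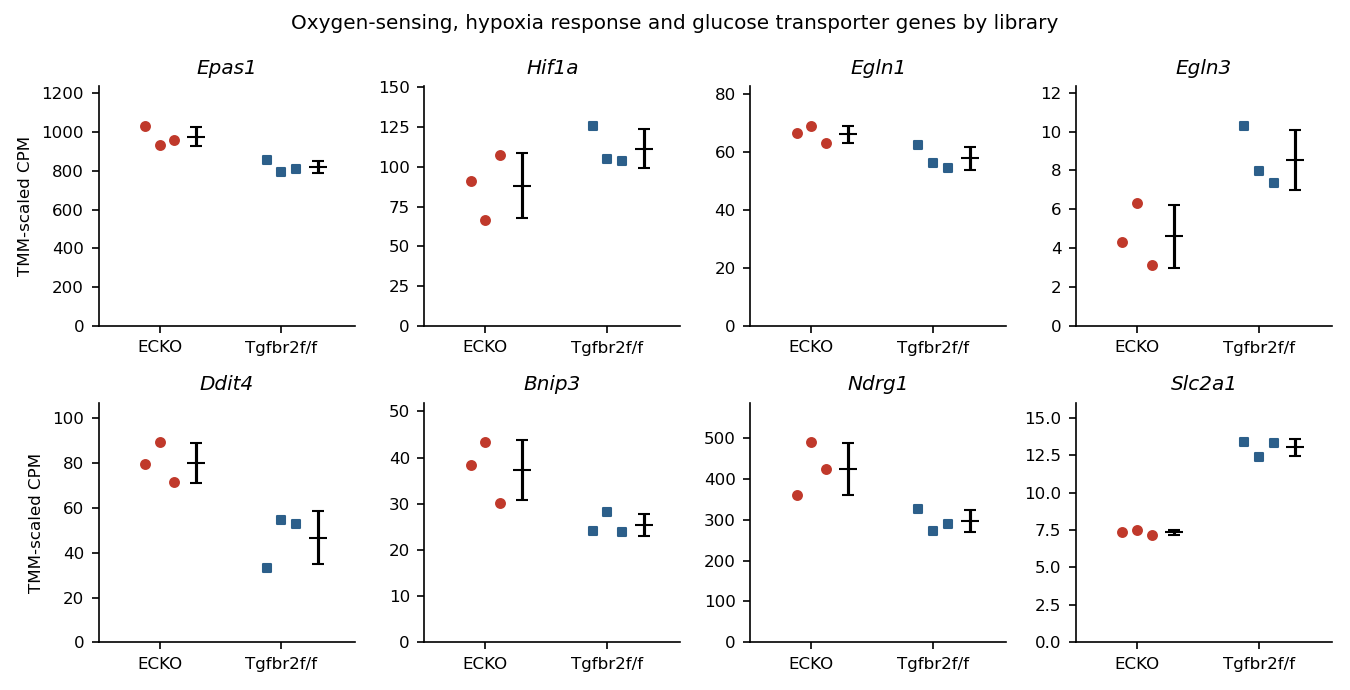
TMM-scaled CPM of 8 genes in each library, with ECKO-labelled libraries as circles on the left and Tgfbr2f/f libraries as squares on the right of each panel, and mean ± SD beside them in black (n = 3). Epas1, Egln1, Ddit4, Bnip3 and Ndrg1 were higher, and Egln3 and Slc2a1 lower, in all ECKO-labelled libraries than in any Tgfbr2f/f library. Hif1a overlapped. Of all genes tested, 15.7% were higher and 15.2% lower in this way. Of the 8 only Slc2a1 passed the test.

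Epas1, which encodes the HIF2A alpha subunit and is the endothelial member of the family, was the most abundant gene of the set. Its level was 1031, 935 and 959.9 CPM in the ECKO-labelled libraries and 856, 796 and 809.9 CPM in the Tgfbr2f/f libraries (log2 fold change 0.25, SE 0.10, adjusted p = 0.172). The groups did not overlap, but the difference was small and did not pass. Under total count scaling its log2 fold change was 0.01, beside -0.22 for the median of all genes. Hif1a, the alpha subunit found in most cells, had 90.9, 66.3 and 107 CPM in the ECKO-labelled libraries and 126, 105 and 104 CPM in the Tgfbr2f/f libraries (log2 fold change -0.34, SE 0.18, adjusted p = 0.290). ECKO replicate 3 lay within the Tgfbr2f/f range. Under total count scaling Hif1a had a log2 fold change of -0.58 (adjusted p = 0.0468).

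Per kilobase of exon, Epas1 was 9.46 to 14.9 times Hif1a in the ECKO-labelled libraries and 7.19 to 8.24 times in the Tgfbr2f/f libraries. Its share of the summed FPKM of the pair was 93.6% ± 1.36 in ECKO and 90.6% ± 0.619 in Tgfbr2f/f (exact permutation p = 0.1, adjusted 0.157). This share does not depend on library scaling. From the wider list, Arnt, the beta subunit, had 43.8 ± 12.8 CPM in ECKO and 47.7 ± 7.50 CPM in Tgfbr2f/f, and Vhl, the ligase subunit that removes hydroxylated HIF, 17.1 ± 1.87 CPM in ECKO and 16.2 ± 2.75 CPM in Tgfbr2f/f. Neither passed (adjusted p = 0.773 and 0.785), and both overlapped between groups. Hif1an, the asparaginyl hydroxylase that restrains HIF activity, had 35.1 ± 1.95 CPM in ECKO and 29.6 ± 2.57 CPM in Tgfbr2f/f (log2 fold change 0.25, SE 0.11, adjusted p = 0.222), and was higher in every ECKO-labelled library without passing.

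Of the prolyl hydroxylases, Egln1 was higher and Egln3 lower in every ECKO-labelled library, and neither passed. Of all genes tested, 15.7% were higher and 15.2% lower in this way. Egln1, the main oxygen sensor, had 66.4, 68.8 and 63.02 CPM in the ECKO-labelled libraries and 62.3, 56.3 and 54.5 CPM in the Tgfbr2f/f libraries (log2 fold change 0.20, SE 0.10, adjusted p = 0.258), higher in every ECKO-labelled library. Under total count scaling its log2 fold change was -0.03, beside -0.22 for the median of all genes. Egln3, the hydroxylase most strongly induced by HIF, had 4.33, 6.33 and 3.15 CPM in the ECKO-labelled libraries and 10.3, 7.96 and 7.37 CPM in the Tgfbr2f/f libraries (log2 fold change -0.89, SE 0.28, adjusted p = 0.113). Its 3 ECKO-labelled libraries were below all Tgfbr2f/f libraries, at 0.540 times their level. It reached an adjusted p of 0.0408 by DESeq2, 0.0404 under total count scaling and 0.0483 on log2(FPKM + 0.1). Egln1 made up 91.7% ± 2.34 in ECKO and 83.7% ± 1.45 in Tgfbr2f/f of the summed FPKM of the pair, with no overlap (exact permutation p = 0.1, adjusted 0.157). Egln2, the third hydroxylase, from the wider list, had 57.2, 64.2 and 56.7 CPM in the ECKO-labelled libraries and 46.5, 49.7 and 47.5 CPM in the Tgfbr2f/f libraries (log2 fold change 0.31, SE 0.09, adjusted p = 0.108). It too was higher in every ECKO-labelled library and did not pass.

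Of the 7 other hypoxia response genes, 6 were tested and none passed. In every ECKO-labelled library 3 were higher than in any Tgfbr2f/f library, as were 15.7% of all genes tested. Ddit4, which encodes REDD1, an inhibitor of mTORC1 that also responds to glucocorticoids and other stress, had 79.5, 89.1 and 71.4 CPM in the ECKO-labelled libraries and 32.95, 54.4 and 52.8 CPM in the Tgfbr2f/f libraries (log2 fold change 0.78, SE 0.20, adjusted p = 0.0704). Its lowest ECKO-labelled library was above the highest Tgfbr2f/f library, and Tgfbr2f/f replicate 1 was the lowest of all. The gene was called higher by DESeq2 (adjusted p = 0.00754), without the filter on low counts (0.0476) and without Tgfbr2f/f replicate 1 (0.0365, log2 fold change 0.59). Whichever other library was left out, its adjusted p was 0.0961 to 0.163.

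Ndrg1, a stress-responsive gene induced by hypoxia, had 359.5, 488 and 422 CPM in the ECKO-labelled libraries and 325, 273 and 289 CPM in the Tgfbr2f/f libraries (log2 fold change 0.52, SE 0.14, adjusted p = 0.0775). Bnip3, a mitophagy receptor and HIF target, had 38.5, 43.3 and 30.3 CPM in the ECKO-labelled libraries and 24.1, 28.2 and 23.9 CPM in the Tgfbr2f/f libraries (log2 fold change 0.55, SE 0.15, adjusted p = 0.0835). Both were higher in every ECKO-labelled library than in any Tgfbr2f/f library. DESeq2 called both (adjusted p = 0.0217 for Ndrg1 and 0.0359 for Bnip3). Under total count scaling their log2 fold changes were 0.30 and 0.32, beside -0.22 for the median of all genes, and neither was called. The promoter of Bnip3 printed above holds 5 motif matches, with its CACGTG counted on both strands. Those of Ddit4, higher in the same libraries, and of Slc2a1, lower in them, hold 2 each. That of Eno2, also lower, holds none. A link between matches and the direction of change was not tested.

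Ankrd37, a small HIF target, pointed down, with 2.06, 2.27 and 1.55 CPM in the ECKO-labelled libraries and 4.27, 1.82 and 3.98 CPM in the Tgfbr2f/f libraries (log2 fold change -0.78, SE 0.37, adjusted p = 0.252), with Tgfbr2f/f replicate 2 inside the ECKO range. Kdm3a, a HIF-induced histone demethylase, had 76.9 ± 16.7 CPM in ECKO and 81.4 ± 6.38 CPM in Tgfbr2f/f (log2 fold change -0.08, SE 0.17, adjusted p = 0.791), and Higd1a, a mitochondrial protein gene induced by hypoxia, 11.5 ± 2.02 CPM in ECKO and 9.84 ± 1.08 CPM in Tgfbr2f/f (log2 fold change 0.23, SE 0.18, adjusted p = 0.466). Car9, carbonic anhydrase 9, a marker of severe hypoxia in tumours, had 2, 3 and 0 counts in the ECKO-labelled libraries and 7, 13 and 7 counts in the Tgfbr2f/f libraries, and was too low to be tested. Scaled by the TMM library sizes, the ratio of its summed counts, 5 over 27, was 0.255 (95% exact conditional interval 0.0767 to 0.672). That interval covers counting error only, not the spread between libraries, and is not a test of Car9.

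**Figure D4:**
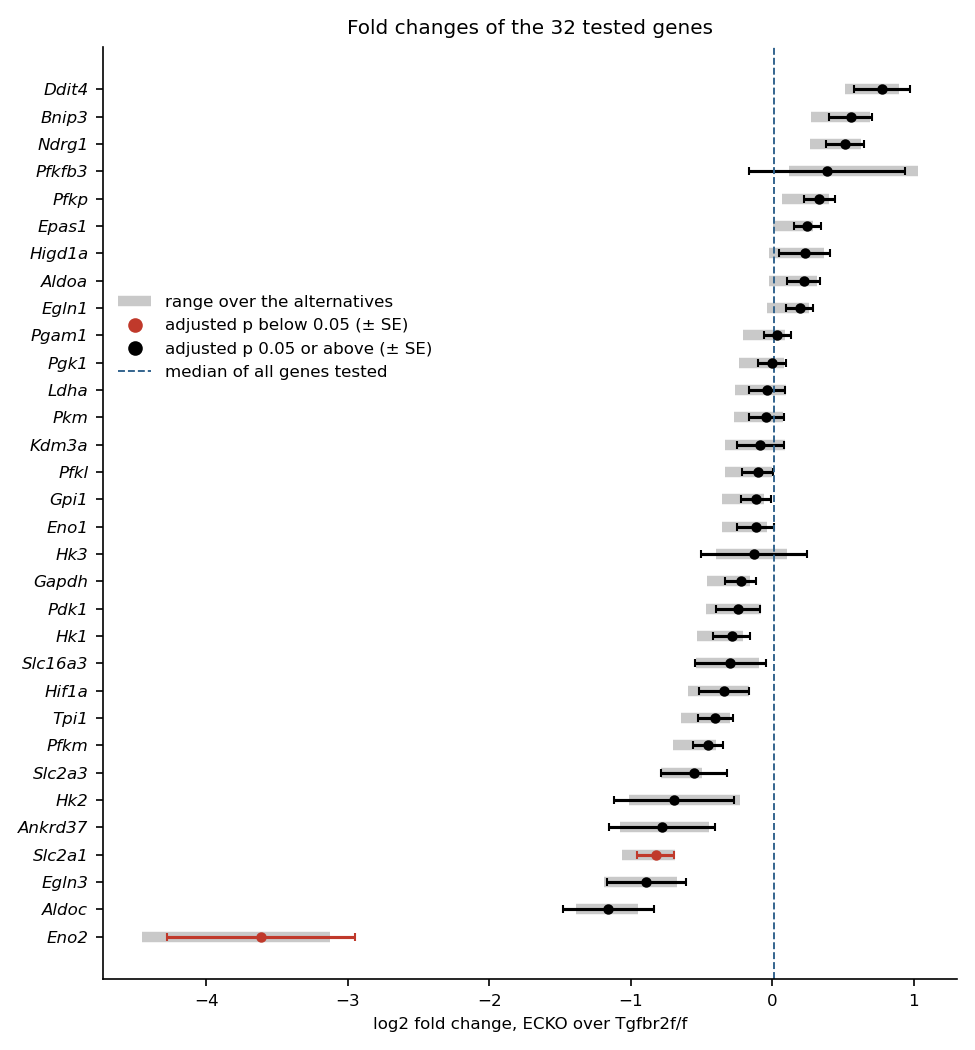
Log2 fold change (ECKO over Tgfbr2f/f) of each tested gene with its SE, in red where the adjusted p was below 0.05 and in black otherwise, over a grey bar that spans its values under the alternative settings and with single libraries left out. The dashed line is the median of all genes tested, 0.01. Ddit4, at 0.78, is at the top and Eno2, whose value of -3.61 rests on 3 counts in ECKO, at the bottom.

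Further genes of these pathways came from lists by pathway. Of 26 other genes of glycolysis and pyruvate use, 24 were tested: 1 fell, none rose and 23 did not pass. Of all genes tested, 2.79% fell and 1.24% rose. The median log2 fold change of the 24 was 0.09. The gene that fell was Slc16a1, the monocarboxylate transporter MCT1, with 7.15 ± 1.26 CPM in the ECKO-labelled libraries and 14.95 ± 3.81 CPM in the Tgfbr2f/f libraries (log2 fold change -1.06, SE 0.23, adjusted p = 0.0496). It lay just under the threshold and missed it whichever library was left out (adjusted p = 0.0559 to 0.149), and by limma-voom (0.0865). Slc16a7, the related transporter MCT2, had 2, 4 and 0 counts in the ECKO-labelled libraries and 24, 21 and 20 counts in the Tgfbr2f/f libraries, and passed the filter only through the Tgfbr2f/f libraries. Its ratio of counts scaled by library size was 0.127 (95% exact conditional interval 0.0450 to 0.292, counting error only), and it did not pass (adjusted p = 0.0589). Hkdc1, a hexokinase-like gene, had 0.768 ± 0.430 CPM in ECKO and 2.02 ± 0.681 CPM in Tgfbr2f/f (log2 fold change -1.40, SE 0.46, adjusted p = 0.128). Of 15 genes of gluconeogenesis and glycogen, 14 were tested and none passed (median 0.11; 1 was under an unadjusted p of 0.05 by edgeR). The smallest p was that of Gys2, the liver glycogen synthase, with 12.3 ± 4.20 CPM in ECKO and 6.41 ± 1.09 CPM in Tgfbr2f/f (log2 fold change 0.94, SE 0.28, adjusted p = 0.0992). Pck1, which starts gluconeogenesis, had 187 ± 76.03 CPM in ECKO and 83.99 ± 58.7 CPM in Tgfbr2f/f (log2 fold change 1.16, SE 0.54, adjusted p = 0.256).

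Of 35 other genes of the HIF pathway and its targets, 31 were tested: 2 rose, 1 fell and 28 did not pass. Of all genes tested, 1.24% rose and 2.79% fell. The median log2 fold change of the 31 was 0.08. The 2 that rose were P4ha1 and P4ha2, HIF-induced subunits of the collagen prolyl hydroxylase. P4ha1 had 306, 388 and 355 CPM in the ECKO-labelled libraries and 177, 174 and 183 CPM in the Tgfbr2f/f libraries (log2 fold change 0.98, SE 0.11, adjusted p = 0.00938). P4ha2 had 57.6, 89.7 and 58.9 CPM in the ECKO-labelled libraries and 28.5, 26.97 and 31.5 CPM in the Tgfbr2f/f libraries (log2 fold change 1.25, SE 0.18, adjusted p = 0.0178). Every ECKO-labelled library was above every Tgfbr2f/f library for both. P4ha1 passed without each single library (adjusted p = 0.0106 to 0.0484), and P4ha2 did not without ECKO replicate 1 (0.0517) or Tgfbr2f/f replicates 2 and 3 (0.0520 and 0.0651). On log2(FPKM + 0.1) neither passed (0.0649 and 0.0587).

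Rora, a nuclear receptor gene and HIF target, fell to 20.7 ± 1.40 CPM in the ECKO-labelled libraries, against 32.1 ± 4.47 CPM in the Tgfbr2f/f libraries (log2 fold change -0.63, SE 0.13, adjusted p = 0.0452). It missed the threshold whichever library except Tgfbr2f/f replicate 1 was left out (0.101 to 0.154; 0.0187 without that library). With every library it also missed it under upper quartile scaling (0.0510), by limma-voom (0.0663) and on log2(FPKM + 0.1) (0.0678) and log2(FPKM + 1) (0.0738). Vegfa, the classical HIF target, had 15.6 ± 0.985 CPM in ECKO and 17.9 ± 1.68 CPM in Tgfbr2f/f (log2 fold change -0.20, SE 0.13, adjusted p = 0.366). Of the HIF targets named above, P4ha1 and P4ha2 rose, and Slc2a1 and Rora fell. The glycolytic gene Eno2 also fell. Vegfa, Ldha, Pgk1, Pdk1, Egln3, Bnip3, Hk2, Slc16a3, Ankrd37 and Kdm3a did not pass. Nor did the hypoxia response genes Ddit4, Ndrg1 and Higd1a, and Car9 was not tested. These genes are a selection, and HIF activity was not tested.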

How the data were processed

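RNA was sequenced from LSECs of 2 genotypes after CCl4, with 3 libraries each. Per the submitters' processing notes, HISAT2 2.0.4 and StringTie 1.3.0 were used, with no role given, on mm10 and GRCm38.p4; the sources used here do not give the counter, annotation or strand setting, so overlapping and antisense genes cannot be separated with certainty. Per the file headers, the authors deposited whole-number counts and FPKM for each gene. FPKM equalled count over length and library total to within 2.85e-06, with lengths a median of 1.25 times the GENCODE M21 exon length.

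Genes were tested on counts with edgeR 4.0.16 (R 4.3.3), using filterByExpr (minimum count 10, minimum total 15), TMM, robust quasi-likelihood F-test, two-sided, genotype as the only term, Benjamini-Hochberg adjustment over 13692 genes, threshold 0.05. SE is the absolute log2 fold change over the square root of F. Isoform shares were compared by exact two-sided permutation tests. On simulated counts of 13692 genes for this comparison, 67% of genes changed by 1 on the log2 scale and 99% of those changed by 2 were recovered. The changed genes had a mean above 1 CPM, and the simulated spread followed the trend over all genes, not each gene's own. These rates therefore do not cover genes as low as Eno2 or as variable as Pfkfb3. Alternatives used DESeq2 1.42.0 and limma 3.58.1. The members, lists and rules were chosen with earlier results of these data known. Every member is given; values in each library are given for genes that passed, led their role or changed call between settings, and for some others chosen after their values were seen. Of each other list at most 4 genes with the smallest p were to be named; Arnt, Vhl, Egln2, Hif1an and Vegfa fall outside that and were added for their roles after their values were seen. Some genes of these lists are not reported here. A count of 0 allows up to 3 counts, 0.124 to 0.200 CPM.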

Additional observations from a re-analysis of the deposited data

How the results depend on the processing

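Slc2a1 was lower under all 10 alternatives that kept every library and was called in each. The count of all genes called, 552, was 1272 under total count scaling, 1491 with DESeq2, 315 with limma-voom and 35 to 1012 with 1 library left out. Genes of the set called lower, 2, were 8 under total count scaling, 5 with DESeq2, 1 with the replicate block and 0 to 2 with 1 library left out. Genes called higher, 0, were 1 without the filter on low counts (where 223 of 20082 genes were higher), 3 with DESeq2 and 0 to 1 with 1 library left out. Total count scaling made 95.05% of all calls lower and log2(FPKM + 0.1) 92.4%, against 69.2% with TMM. The replicate numbers were not taken as pairs, as the labels name no pairing. Deviations of same-numbered libraries correlated at 0.11, 0.17 and -0.03. ECKO replicates 1 and 2 each correlated best with the Tgfbr2f/f library of the same number, and ECKO replicate 3 with Tgfbr2f/f replicate 1 (0.11). These correlations do not settle whether the numbers are pairs. With the block 416 genes were called, and Eno2 had an adjusted p of 0.0581, Rora 0.0608 and Slc16a1 0.0897.

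Signs turned for genes near 0, none of them called. Total count scaling and the 2 FPKM scales moved the median of all genes to -0.22, -0.19 and -0.15, so the values on them are relative to those. Under total count scaling, log2(FPKM + 0.1) and log2(FPKM + 1), Aldoa was -2e-04, -0.0196 and -0.0188, Pgam1 -0.204, -0.198 and -0.193, and Egln1 -0.0347, -0.0393 and -0.0372. Higd1a was -0.0188 and -0.0132 on the 2 FPKM scales. Pgk1 was 0.0015 without mitochondrial genes, 0.0085 without the filter, 0.0025 by limma-voom and 0.0025 with the block. With 1 library left out, the values spanned -0.337 to 0.107 for Hk3, -0.0420 to 0.0836 for Pgk1, -0.137 to 0.0769 for Pkm, -0.137 to 0.0992 for Ldha and -0.175 to 0.0937 for Kdm3a.

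Isoform shares (ECKO minus Tgfbr2f/f, percentage points) on raw counts were -3.03 for Slc2a1, 5.07 for Pfkp, -1.46 for Pfkl and 1.33 for Eno1, which was 1.52 per exon length and 0.968 per longest transcript, scales chosen after the data were seen. With 1 library left out Hk2 spanned -2.03 to 0.00423 and Hk3 -0.241 to 0.657. The cause of these changes was not tested.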
